A study of Homo sapiens with 18 samples.

Results

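Epithelial-mesenchymal transition (EMT) is the change by which epithelial cells give up their junctions and take on a motile, fibroblast-like state, and the genes described here are 6 transcription factors that drive it and 2 of its classical markers. SNAI1 (Snail) and SNAI2 (Slug) are zinc finger repressors, TWIST1 and TWIST2 are basic helix-loop-helix factors, and ZEB1 and ZEB2 are zinc finger homeobox repressors. VIM encodes vimentin, the intermediate filament of mesenchymal cells, and FN1 encodes fibronectin, a glycoprotein of the extracellular matrix. These 8 genes were found by name among the 39496 genes of the count table. SNAI, TWIST and ZEB proteins act on E-box sequences, the SNAI and ZEB proteins mainly as repressors of epithelial genes such as CDH1 (E-cadherin), and in bladder carcinoma a mesenchymal expression state is known to go with invasive tumors.

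RNA was sequenced from 18 libraries of UM-UC-3 and T24 cells, which are established human bladder cancer cell lines, and no group carried a change of genotype. Either line received siNC, a control siRNA, or an siRNA targeting ACAT1, of which there were 2 (siACAT1-1 and siACAT1-2). Each of the 6 groups held 3 libraries labelled as biological replicates. ACAT1 encodes a mitochondrial acetoacetyl-CoA thiolase, and the study asked whether its loss changes the growth, migration and EMT state of these cells. The labels give neither the time after transfection nor whether replicates were separate passages, so the tests measure the spread between these libraries. Values are given as RPKM, reads per kilobase of exon, scaled to the reads counted on genes in that library.

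In UM-UC-3 cells ACAT1 fell from 46.0 ± 1.68 RPKM (mean ± SD, n = 3) to 3.05 ± 0.703 with siACAT1-1 and 2.16 ± 0.544 with siACAT1-2. T24 cells had 16.2 ± 1.40, 1.29 ± 0.149 and 0.792 ± 0.122 RPKM in the same order. Between 25163490 and 34417230 reads were counted per library. Of the urothelial markers, UPK3A and UPK1B never had more than 3 reads, and 1 of 13 measured markers in UM-UC-3 and 2 to 3 of 13 in T24 reached a mean of 1 RPKM. CDH1 had at most 6 reads in any library. Among markers of other cells, CD3E and LYZ never passed 3 reads, 0 of 6 endothelial markers reached a mean of 1 RPKM in any group, and the summed level of the 8 fibroblast markers was 5.04 to 12.2 RPKM in UM-UC-3 and 1.44 to 2.32 in T24 libraries. CD68, a lysosomal protein listed as a leukocyte marker and also made by other cells, had group means of 51.0 to 195 RPKM. Replicate 2 of T24 stood apart from replicates 1 and 3 in all 3 siRNA groups, and results that rest on it are also given without it.

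VIM had the highest level of the 8 genes in each group. In UM-UC-3 cells with siNC the mean levels ran from VIM (268 ± 33.0 RPKM, SD, n = 3) to ZEB1 (32.2 ± 2.85), ZEB2 (2.63 ± 0.249), FN1 (0.813 ± 0.0701), SNAI2 (0.615 ± 0.237) and SNAI1 (0.382 ± 0.314), with TWIST1 and TWIST2 at 0 reads in the 3 libraries. The ranges of FN1 and SNAI2 overlapped, as did those of SNAI2 and SNAI1, while the other neighbours above the TWIST genes did not. In T24 cells with siNC, VIM (220 ± 47.0) was followed by SNAI2 (36.2 ± 33.1), FN1 (14.3 ± 3.26), ZEB1 (14.2 ± 2.18) and ZEB2 (3.04 ± 1.25), and SNAI2, FN1 and ZEB1 could not be ordered because their ranges overlapped. The table divides by all annotated exon bases of a gene, which exceed the MANE Select transcript (the agreed main transcript of a gene) 2.56-fold for ZEB2, 2.39-fold for VIM, 2.06-fold for FN1 and 1.46-fold for ZEB1. With siNC the order of the means was the same per MANE length, but FN1 and SNAI2 then no longer overlapped in UM-UC-3 cells. With siACAT1-1 in UM-UC-3 and with siACAT1-2 in T24 cells SNAI2 was above FN1 per exon base and below it per MANE length, so their order was not settled there.

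**Figure D1:**
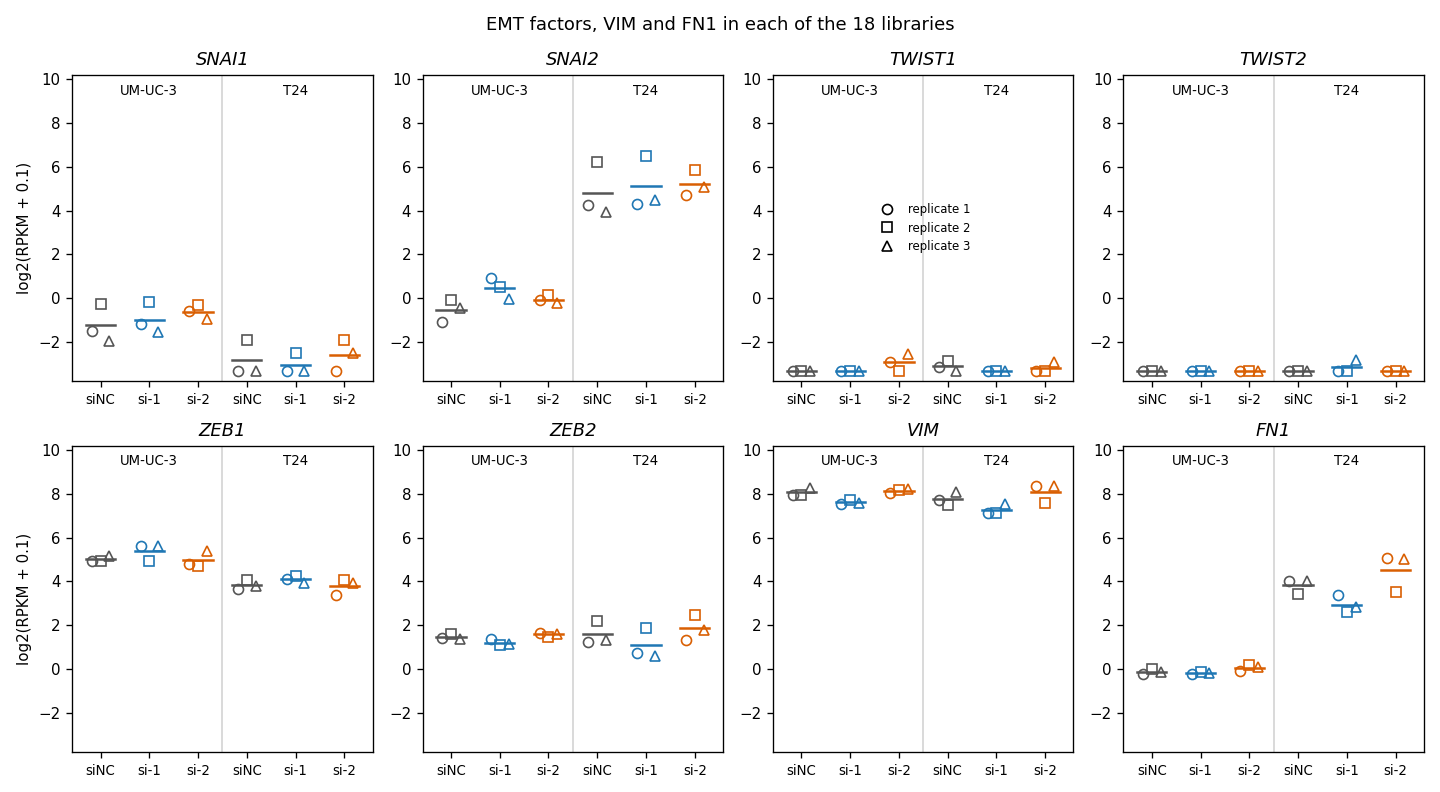
Level of each gene in the 18 libraries as log2(RPKM + 0.1), by cell line and siRNA (si-1 is siACAT1-1, si-2 is siACAT1-2). Each symbol is 1 library with its replicate number and each bar is a group mean of the log2 values. SNAI2 and FN1 sit higher in T24 cells and ZEB1 in UM-UC-3 cells, and the TWIST genes sit at or near the lower end in every library.

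TWIST1 and TWIST2 were hardly detected. TWIST1 had 0 reads in 13 of 18 libraries and at most 4, and TWIST2 had 0 in 17 and at most 2. A count of 0 allows up to 3 reads, which is 0.0429 to 0.0586 RPKM for TWIST1 and 0.0464 to 0.0635 RPKM for TWIST2 at these depths, for counting error only. Both failed the filter on low counts, so 6 of the 8 genes were tested. SNAI1 passed it through the UM-UC-3 libraries, with 0.154 to 0.773 RPKM there, whereas 5 of 9 T24 libraries had 0 reads and none had more than 8.

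The cell lines differed in the levels of SNAI2, FN1 and ZEB1. With siNC, SNAI2, which encodes Slug, was 18.9, 74.3 and 15.4 RPKM in the T24 replicates and 0.373, 0.847 and 0.624 RPKM in the UM-UC-3 replicates. The lowest T24 library was thus far above the highest UM-UC-3 library, and the log2 difference (UM-UC-3 minus T24) was -5.79 ± 0.70 (SE, edgeR adjusted p = 5.16e-06). FN1 was 16.1, 10.5 and 16.2 RPKM in T24 against 0.751, 0.889 and 0.800 in UM-UC-3 cells. Again the groups did not overlap, and the log2 difference was -4.09 ± 0.38 (adjusted p = 2.12e-07). ZEB1 ran the other way, with 30.8, 30.3 and 35.5 RPKM in UM-UC-3 and 12.4, 16.6 and 13.6 in T24 libraries (log2 difference 1.23 ± 0.20, adjusted p = 1.05e-04). UM-UC-3 cells had SNAI1 at 0.252, 0.739 and 0.154 RPKM, and T24 cells at 0, 0.168 and 0. Its log2 difference of 2.85 ± 1.10 had an adjusted p of 0.0443, but since it passed the filter only through UM-UC-3 cells it could differ in no other direction, and leaving out UM-UC-3 siNC replicate 1 or 2, T24 siNC replicate 1 or 3, or any of 5 knockdown libraries ended the call (adjusted p 0.0518 to 0.222).

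VIM and ZEB2 were not called between the cell lines. VIM was 249, 249 and 306 RPKM in UM-UC-3 and 211, 179 and 271 in T24 cells, so the ranges overlapped (log2 difference 0.32, 95% confidence interval -0.14 to 0.78, adjusted p = 0.244). ZEB2 was 2.53, 2.92 and 2.46 RPKM against 2.27, 4.49 and 2.38, also overlapping (-0.15, interval -0.80 to 0.51, adjusted p = 0.729), and its sign turned without T24 replicate 2 (0.17). Leaving aside SNAI1, called members were 3 of 5, beside 44.3% of all 20144 genes tested in this comparison.

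The counts for other genes tied to the EMT state stand beside the same 44.3% of all genes. Genes at or near 0 in 1 line passed the filter through the other line, which fixed their direction, so the counts are a description. Among the genes named they included GSC, FOXQ1, THY1, PDGFRA, TEK, TP63, LAMA3 and PKP2. Of 9 tested EMT transcription factors other than the 8 genes, UM-UC-3 had 3 higher and T24 had 2 higher (median log2 difference -0.41, against 0.03 over all genes). GSC (goosecoid) averaged 1.28 RPKM in UM-UC-3 and was at 0 in T24 cells with siNC, FOXQ1 was at 0 in UM-UC-3 and averaged 0.660 RPKM in T24, and TCF12, an E-protein, and SOX4 were higher in UM-UC-3 (log2 difference 1.89 ± 0.19 and 1.40 ± 0.43, adjusted p = 5.17e-07 and 0.0134). Of 26 tested mesenchymal genes, UM-UC-3 had 10 higher and T24 had 8 higher (median -0.05). MMP2, a matrix metalloproteinase, averaged 3.99 RPKM in UM-UC-3 and 0.0620 in T24, COL5A1 1.81 and 0.0478, and THY1 5.80 and 0.0219, whereas MYL9, a myosin light chain, averaged 0.199 and 23.9 RPKM. Of 21 tested genes of TGF-beta signalling, a main inducer of EMT, 8 were higher in UM-UC-3 and 7 in T24 (median 0.36). SMAD6, TGFBI and ID2 were higher in UM-UC-3 (4.99 ± 0.73, 4.85 ± 0.60 and 3.92 ± 0.67), and THBS1, which encodes thrombospondin, was lower (-5.79 ± 0.64).

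Of 20 corepressors and turnover factors of SNAI and ZEB proteins, UM-UC-3 had 8 higher and T24 had 6 higher (median 0.41). LOXL2 and EZH2 were higher in UM-UC-3 (1.13 ± 0.39 and 1.08 ± 0.20), and SMARCA4 and USP27X were lower (-1.83 ± 0.28 and -1.80 ± 0.31). Of 23 tested epithelial genes, 11 were higher in T24 and 3 in UM-UC-3 cells (median -1.13). KRT19 averaged 20.4 RPKM in T24 and 0.0907 in UM-UC-3, DSP (desmoplakin) 18.9 and 0.109, PKP2 1.30 and 0.00908 and LAMA3 0.442 and 0.00160. Of 8 tested urothelial markers, 3 were higher in T24 and 1 in UM-UC-3 (median -1.47); KRT7 averaged 275 RPKM in T24 and 4.13 in UM-UC-3, PPARG 4.03 and 0.225, FOXA1 1.23 and 0.0767 and TP63 0.00317 and 0.123. All 4 called fibroblast markers of 6 tested (THY1, PDGFRA, COL3A1 and PDGFRB, median 1.78) and both tested endothelial markers (PECAM1 and TEK, each at or under 0.132 RPKM on average with siNC) were higher in UM-UC-3 cells, and 0 of 2 tested leukocyte markers were called. In T24 cells with siNC, THY1, PDGFRA, PECAM1 and TEK averaged 0.0219, 0.00641, 0.0101 and 0.00492 RPKM. At such levels the opposite direction could not have been called.

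None of the 8 genes was called with edgeR in any of the 4 comparisons of a knockdown with siNC, and DESeq2 called none either. Of all genes, UM-UC-3 cells had 0.00993% called for siACAT1-1 and 0.0546% for siACAT1-2, and T24 cells had 0.124% and 0.268%. At an unadjusted p under 0.05 UM-UC-3 cells had 0 and 0 members and T24 cells had 2 and 1, beside 1075, 777, 2325 and 1700 of the 20144 genes. Libraries with the same replicate number within a cell line deviated together, so each result was also fitted with the replicate number as a block. The block gave calls for 3.06% and 1.36% of all genes in UM-UC-3, and T24 cells had 13.9% and 8.48%. The members it called were VIM with siACAT1-1 in UM-UC-3, VIM, ZEB2 and FN1 with siACAT1-1 in T24, and FN1 with siACAT1-2 in T24 cells. Comparisons within a cell line share their siNC libraries.

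VIM was lower with siACAT1-1 in both cell lines. In UM-UC-3 cells it was 184, 208 and 193 RPKM with siACAT1-1 and 262, 290 and 295 with siACAT1-2, beside the siNC levels of 249, 249 and 306. All siACAT1-1 libraries were below all siNC libraries, with a log2 fold change of -0.46 ± 0.22 (SE, adjusted p = 0.936) without the block and -0.46 ± 0.12 (adjusted p = 0.0452) with it. In T24 cells VIM was 139, 138 and 186 RPKM with siACAT1-1 and 328, 194 and 325 with siACAT1-2. The siACAT1-1 value was below siNC within each replicate number, at 0.661 to 0.769 of it, although the groups overlapped (-0.50 ± 0.22, adjusted p = 0.374, with the block -0.49 ± 0.12, adjusted p = 0.0107). With siACAT1-2 the fold change was 0.03 in UM-UC-3 (interval -0.42 to 0.49) and 0.39 in T24 cells (-0.07 to 0.85), and neither was called with or without the block; without T24 replicate 2 the blocked T24 value was 0.46 (adjusted p = 0.0315). Without UM-UC-3 replicate 3 the blocked call in UM-UC-3 cells was lost (-0.35, adjusted p = 0.483).

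FN1 moved in opposite directions with the siRNAs in T24 cells. It was 10.3, 5.94 and 7.04 RPKM with siACAT1-1, all below the siNC libraries, and 33.8, 11.2 and 32.1 RPKM with siACAT1-2. The log2 fold change with siACAT1-1 was -0.86 ± 0.33 (adjusted p = 0.310), -0.87 ± 0.16 with the block (adjusted p = 0.00145) and -0.90 without T24 replicate 2 (adjusted p = 0.0219). With siACAT1-2 it was 0.88 ± 0.33 (adjusted p = 0.417), 0.77 ± 0.16 with the block (adjusted p = 0.00491) and 1.03 without T24 replicate 2 (adjusted p = 0.0238). Of the 18 fits without 1 library, the one without siACAT1-2 replicate 2 alone gave a call (1.23, adjusted p = 0.0372), and the value was lowest without siACAT1-2 replicate 1 (0.58). In UM-UC-3 cells FN1 was 0.741, 0.796 and 0.793 RPKM with siACAT1-1 and 0.827, 1.02 and 0.960 with siACAT1-2, with fold changes of -0.07 (interval -0.78 to 0.64) and 0.16 (-0.55 to 0.87).

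ZEB2 followed VIM in direction. In T24 cells it was 1.57, 3.57 and 1.42 RPKM with siACAT1-1 and 2.40, 5.47 and 3.34 with siACAT1-2, against 2.27, 4.49 and 2.38 with siNC. The groups overlapped because replicate 2 was high in each, and the log2 fold change with siACAT1-1 was -0.47 ± 0.31 (adjusted p = 0.606), with the block -0.52 ± 0.12 (adjusted p = 0.00903). In UM-UC-3 cells ZEB2 was 2.49, 2.05 and 2.09 RPKM with siACAT1-1 and 3.03, 2.67 and 2.94 with siACAT1-2, and no fit called it against siNC. UM-UC-3 cells had ZEB1 at 48.2, 30.4 and 48.8 RPKM with siACAT1-1 and at 27.3, 26.3 and 41.5 with siACAT1-2, and T24 cells at 17.4, 19.1 and 15.3 and then 10.4, 16.4 and 15.1. Its siACAT1-1 level was at or above siNC in 6 of 6 replicate numbers (1.00-fold to 1.57-fold), with log2 fold changes of 0.39 (interval -0.02 to 0.81) and 0.30 (-0.12 to 0.71) that were not called in either fit. Per MANE length, UM-UC-3 cells had a ratio of ZEB1 to ZEB2 of 5.92 to 8.22 with siNC, 8.44 to 13.3 with siACAT1-1 and 5.12 to 8.04 with siACAT1-2, with no test. T24 cells had 2.11 to 3.26, 3.06 to 6.30 and 1.71 to 2.57.

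SNAI2 in UM-UC-3 cells was 1.77, 1.33 and 0.883 RPKM with siACAT1-1, all above the siNC libraries, and 0.829, 0.994 and 0.753 with siACAT1-2. The log2 fold change with siACAT1-1 was 1.10 (interval -0.24 to 2.43, adjusted p = 0.946), and with the block 1.08 (0.43 to 1.73, adjusted p = 0.0624). Fitted with no filter on low counts it was 1.11 (adjusted p = 0.00829), a fit that called 167 genes in this comparison against 2 with the filter. With the block without T24 replicate 2, SNAI2 changed by 1.10 (adjusted p = 0.0117). In T24 cells it was 19.8, 90.8 and 22.3 RPKM with siACAT1-1 and 26.3, 58.1 and 33.8 with siACAT1-2, and every group overlapped siNC. The log2 fold changes were 0.31 and 0.15, neither of them called, and 0.30 and 0.46 with the block (adjusted p = 0.388 and 0.205). Of these, siACAT1-2 was called only with the block and without replicate 2 (0.80, adjusted p = 0.0150). SNAI1 gave log2 fold changes of 0.23 and 0.50 in UM-UC-3 cells with intervals from -1.67 to 2.39 at 8 to 40 reads per library, and of 0.30 and 0.71 with the block, with intervals from -0.73 to 1.73. No fit called it against siNC.

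**Figure D2:**
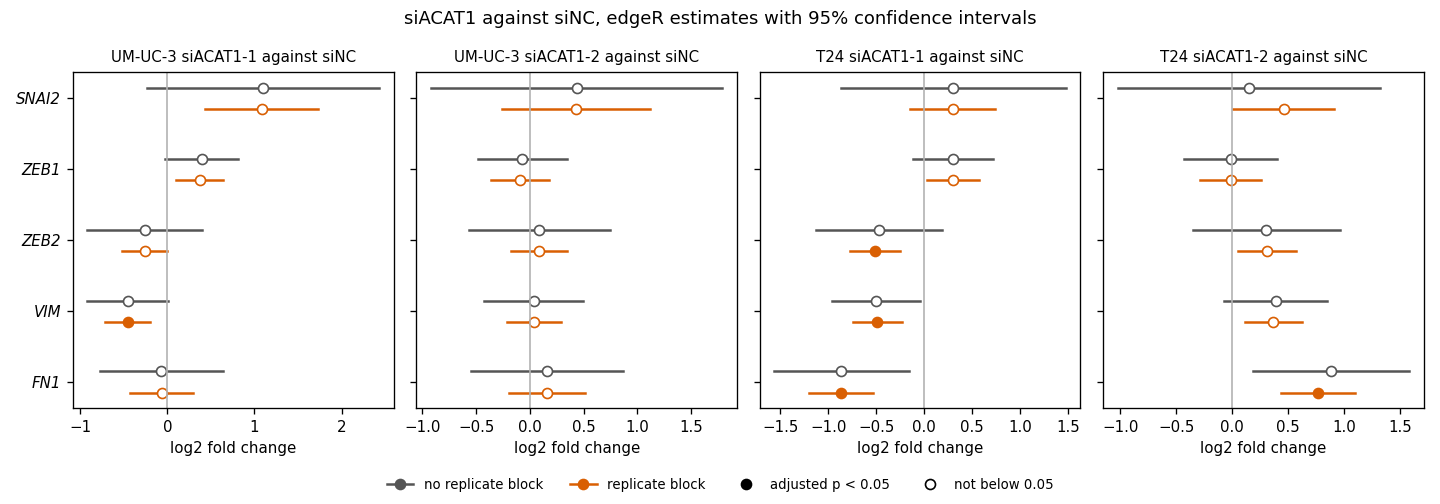
Log2 fold change of each siRNA against siNC (x axis) for 5 genes, with 95% confidence intervals, without the replicate block (grey) and with it (orange); filled points have an adjusted p under 0.05. The blocked intervals are narrower, and the filled points are VIM in UM-UC-3 and VIM, ZEB2 and FN1 in T24 cells with siACAT1-1, and FN1 in T24 cells with siACAT1-2.

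Averaged over the 4 comparisons, no member was called without the block, beside 0.223% of all genes. The mean log2 fold change was 0.50 ± 0.37 for SNAI2, 0.15 ± 0.12 for ZEB1, -0.08 ± 0.19 for ZEB2, -0.13 ± 0.13 for VIM and 0.03 ± 0.20 for FN1. With the block SNAI2 was called (0.57 ± 0.17, adjusted p = 0.0326), beside 12.4% of all genes, and the call was lost without UM-UC-3 replicate 3 (0.66, adjusted p = 0.0633). The knockdown effect of UM-UC-3 minus that of T24 cells was called for none of the 6 tested genes in either fit, where edgeR called 0% of all genes without the block (517 genes had an unadjusted p under 0.05, and DESeq2 called 1) and 0.104% with it. That of SNAI2 was 0.54 with an interval of -1.01 to 2.09, and 0.38 with the block.

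The lists gave few calls over the 4 comparisons. AXL, a receptor tyrosine kinase, was lower (-0.55 ± 0.10, adjusted p = 0.0399) and was the single call without the block among 26 mesenchymal genes (median 0.08 against -0.00126 over all genes). With the block, which called 12.4% of all genes, 2 of these rose and 4 fell. MMP14 rose (0.54 ± 0.08) and ACTA2, which encodes smooth muscle actin, fell (-0.69 ± 0.12). ACTA2 averaged 0.937, 0.924 and 1.02 RPKM with siNC, siACAT1-1 and siACAT1-2 in UM-UC-3 cells. In T24 cells it averaged 2.48, 1.03 and 0.741 RPKM, so its fall lay in T24 cells. THY1 was called lower, with means of 5.80, 4.64 and 6.17 RPKM with siNC, siACAT1-1 and siACAT1-2 in UM-UC-3 cells and of 0.0219, 0 and 0.00741 RPKM in T24 cells. AXL and CDH2 (-0.26 ± 0.07) were the others called lower, although the mean RPKM of CDH2 was below siNC with siACAT1-1 and above it with siACAT1-2 in both lines, and SPARC (0.42 ± 0.11) rose. Among TGF-beta genes the block gave 3 calls, TGFBI (0.83 ± 0.12), TGFBR2 (0.31 ± 0.09) and SMAD3 (-0.32 ± 0.10), against 0 without it. For the corepressors it gave 4 against 0: CTBP1 (-0.39 ± 0.08), KDM1A (-0.30 ± 0.07), EZH2 (-0.30 ± 0.08) and FBXW7 (0.27 ± 0.08). KDM1A and FBXW7 moved in opposite directions with the siRNAs in T24 cells. Their means there were 11.67, 12.99 and 7.173 RPKM and 1.744, 2.735 and 1.64 RPKM with siNC, siACAT1-1 and siACAT1-2. TCF3, an E-protein, was the 1 other EMT factor (-0.22 ± 0.06), and KRT18 (-0.31 ± 0.06), KRT8 (-0.19 ± 0.06) and PKP2, which was near 0 in UM-UC-3 cells, were the 3 epithelial genes called, all lower. In T24 cells, however, KRT8 averaged 250.4, 225.9 and 316.5 RPKM with siNC, siACAT1-1 and siACAT1-2, and KRT18 235.6, 188.8 and 242.9. Both were thus above siNC with siACAT1-2 there. The block also called KRT7 among urothelial, THY1 among fibroblast and CD68 among leukocyte markers and no endothelial gene, where the fit without it called none in these 4 lists.

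With all 18 libraries, the filter on low counts and no block, edgeR called members between the siNC groups and otherwise only between the siRNAs. Over both lines VIM was higher with siACAT1-2 than with siACAT1-1 (log2 difference 0.69 ± 0.15, adjusted p = 0.0255, with the block 0.67 ± 0.09, adjusted p = 2.43e-05). FN1 was also higher (0.99 ± 0.24, adjusted p = 0.0342, with the block 0.93 ± 0.12, adjusted p = 2.30e-05). This mean joined 1.75 ± 0.34 in T24 with 0.23 in UM-UC-3 cells (interval -0.48 to 0.94, adjusted p = 0.909). In UM-UC-3 cells FN1 was not called with the block either (0.23, adjusted p = 0.450). VIM and FN1 were the 2 members called of 6 over both lines, beside 2.56% of all genes, and DESeq2 and limma called the same pair. With the block ZEB2 was called higher with siACAT1-2 (0.59 ± 0.09, adjusted p = 1.24e-04, against 0.197 without the block) and ZEB1 lower (-0.39 ± 0.09, adjusted p = 0.00484, against 0.156), which made 4 of 6 beside 20.6% of all genes. SNAI2 (-0.41, interval -1.29 to 0.47) and SNAI1 (0.85, interval -0.89 to 2.58) were not called. ACAT1 itself was lower with siACAT1-2 than with siACAT1-1 (-0.62 ± 0.15, adjusted p = 0.0340), and its part in these differences was not tested.

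Ratios within replicate numbers describe the same libraries and are no further test. With siACAT1-2 over siACAT1-1, the ratio of VIM was 1.42, 1.39 and 1.53 in the 3 UM-UC-3 replicates and 2.36, 1.41 and 1.75 in T24, and that of FN1 was 1.12, 1.29 and 1.21 and then 3.26, 1.89 and 4.56. VIM and FN1 were thus higher in 6 of 6 pairs, with the larger FN1 ratios in T24. In each line every siACAT1-2 library was above every siACAT1-1 library for both genes, so any pairing would give this count. How many of all genes kept 1 direction in 6 of 6 pairs was not counted. ZEB2 was also higher in 6 of 6 (1.22-fold to 2.35-fold), ZEB1 was lower in 6 of 6 (0.565 to 0.985) and SNAI2 was lower in 4 of 6. Without the block, leaving out 1 library ended the VIM call in 7 of 18 cases (adjusted p up to 0.0809) and the FN1 call in 11 of 18 (up to 0.102), with log2 differences that stayed between 0.60 and 0.81 for VIM and between 0.84 and 1.18 for FN1. Without UM-UC-3 replicate 3 in all its groups neither was called without the block (adjusted p = 0.102 for VIM and 0.129 for FN1), and with the block all 4 members were. For VIM the libraries whose removal ended the call were replicates 1 and 3 of siACAT1-1 and 1 and 2 of siACAT1-2 in UM-UC-3 cells, and replicate 1 of siACAT1-1 and 1 and 3 of siACAT1-2 in T24 cells. For FN1 they were siNC replicate 1 and all 6 knockdown libraries of UM-UC-3, and replicates 2 and 3 of siACAT1-1 and 1 and 3 of siACAT1-2 of T24 cells.

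Taken by cell line, the siRNA difference was largest for FN1 in T24 cells. There it was 1.75 ± 0.34 (adjusted p = 0.0245), the only member called, beside 0.968% of all genes, and the call was lost without siACAT1-1 replicate 1 or 3 or siACAT1-2 replicate 1 or 3 (adjusted p 0.0540 to 0.146), and when T24 cells were fitted alone. VIM in T24 was 0.89 ± 0.22 (adjusted p = 0.0626) and ZEB2 0.77 ± 0.31 (adjusted p = 0.286), and both were called with the block (adjusted p = 1.37e-04 and 2.38e-04), as was FN1, beside 14.7% of all genes. Without T24 replicate 2 and without the block FN1, VIM and ZEB2 were all called. That removal was chosen after seeing the data, and its share of all genes is not given here. Without UM-UC-3 replicate 3 and without the block the FN1 call in T24 cells was lost (1.72, adjusted p = 0.0610). In UM-UC-3 cells no member was called (DESeq2 also called none, and 2 had an unadjusted p under 0.05), beside 0.0496% of all genes. With the block VIM (0.49 ± 0.12, adjusted p = 0.0168) and ZEB1 (-0.46 ± 0.13, adjusted p = 0.0311) were called, beside 8.15% of all genes, and both were lost without UM-UC-3 replicate 3 (adjusted p = 0.0952 and 0.0863).

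**Figure D3:**
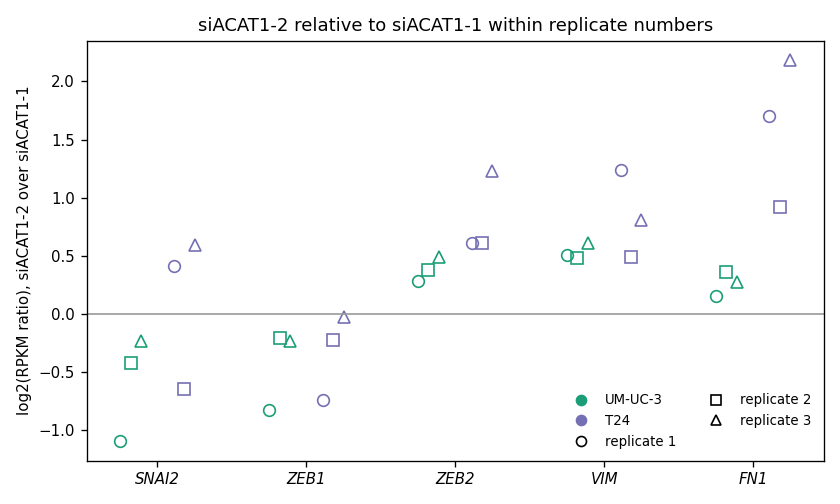
Log2 ratio of RPKM, siACAT1-2 over siACAT1-1, for pairs of libraries with the same replicate number (symbols) in UM-UC-3 (green) and T24 cells (purple). All 6 points of ZEB2, VIM and FN1 lie above 0 and all 6 of ZEB1 below it, and SNAI2 is on both sides.

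Between the siRNAs, the fit without the block called 2.56% of all genes, the share to set beside its list counts here. Of 20 corepressors and turnover factors 3 differed without the block, all lower with siACAT1-2 (median -0.18 against 0.01 over all genes): CSNK1A1, a kinase (-0.63 ± 0.15), CTBP1, a corepressor of ZEB proteins (-0.61 ± 0.13), and FBXW7, a ubiquitin ligase subunit (-0.57 ± 0.12). With the block, which called 20.6% of all genes, 2 were higher and 7 lower. Of 26 mesenchymal genes TAGLN (transgelin) was higher (1.14 ± 0.29, adjusted p = 0.0479, median 0.21), and with the block 8 were higher, among them CDH2, which encodes N-cadherin (0.68 ± 0.08), and 2 lower. LLGL2, at or under 0.165 RPKM on average in every group, was the 1 of 23 epithelial genes called (median 0.16), and with the block 5 were higher. Of TGF-beta genes 0 of 21 were called (with the block 5 higher and 1 lower), and of other EMT factors 0 of 9 (with the block SOX4 higher and TCF12 lower). Of the marker lists the block called KRT7 and COL3A1, both higher with siACAT1-2, and the fit without it called none. The genes of this paragraph were named after their values were seen.

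The promoters of VIM and FN1, higher with siACAT1-2, and of ZEB1, lower with it, are shown because these genes differed between the siRNAs. ZEB1 was called with the block alone (adjusted p = 0.00484, against 0.156 without it), and ZEB2, also called with the block alone, is not shown. The SNAI and ZEB proteins bind the E-box CAGGTG, which was a further reason. RefSeq promoter windows (GRCh38.p14, 250 bases before to 50 after a start site) matched 5 of the 8 genes, and the windows below are those at the MANE start, on the gene's strand: ZEB1 at chr10:31318966-31319265 on the plus strand, VIM at chr10:17227991-17228290 on the plus strand and FN1 at chr2:215436019-215436318 on the minus strand. Capitals mark CAGGTG on either strand in ZEB1, the GC box GGGCGG in VIM and the cAMP response element TGACGTCA in FN1.
ZEB1: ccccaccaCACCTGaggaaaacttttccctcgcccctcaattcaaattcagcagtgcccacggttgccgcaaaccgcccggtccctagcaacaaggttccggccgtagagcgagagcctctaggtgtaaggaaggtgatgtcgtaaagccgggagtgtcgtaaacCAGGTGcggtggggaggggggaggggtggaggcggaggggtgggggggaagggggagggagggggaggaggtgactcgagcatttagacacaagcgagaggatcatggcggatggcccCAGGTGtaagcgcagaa
VIM: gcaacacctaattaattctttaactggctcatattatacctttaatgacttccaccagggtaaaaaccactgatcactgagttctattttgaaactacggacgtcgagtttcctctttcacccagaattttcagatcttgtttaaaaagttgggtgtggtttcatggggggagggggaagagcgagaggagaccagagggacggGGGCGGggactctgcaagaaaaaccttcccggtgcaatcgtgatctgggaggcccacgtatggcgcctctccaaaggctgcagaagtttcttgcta
FN1: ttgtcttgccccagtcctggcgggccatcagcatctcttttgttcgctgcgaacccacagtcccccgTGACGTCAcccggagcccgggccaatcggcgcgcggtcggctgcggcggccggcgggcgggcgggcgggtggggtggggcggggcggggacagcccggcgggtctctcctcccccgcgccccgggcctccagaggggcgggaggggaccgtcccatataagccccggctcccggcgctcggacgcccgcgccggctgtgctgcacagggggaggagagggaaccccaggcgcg

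The ZEB1 window held CAGGTG 3 times, at -242 (on the other strand), -85 and +33 from the start site, and the VIM and FN1 windows did not hold these letters. Of the 7 ZEB1 windows, 1 other held it once and 5 did not hold it, nor did that of ZEB2. Over 35116 windows, searched on both strands, 20.6% held CAGGTG and 68.7% the general E-box CANNTG, which includes it. The VIM window held GGGCGG once, at -46, and FN1 held it 6 times, where 45.0% of windows do. FN1 held TGACGTCA at -183, as 1.85% of windows do. The letters TGANTCA (7.71% of windows) and TATAAA (11.5%) were in none of the 3 windows. These are matches of letters, and binding was not measured.

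The count of VIM cannot be told apart from that of 2 genes on the other strand. VIM lies at chr10:17228259-17237593 on the plus strand, and RP11-124N14.3 shares 619 exon bases with it, 87.7% of its own length, and VIM-AS1 shares 641. Reads of RP11-124N14.3 came to 51.9% to 54.8% of those of VIM in all 18 libraries, and reads of VIM-AS1 to 23.0% to 27.2%. The library kit marked strand, but the strand setting of the counting is not given in the sources used here, and the source of the near constant ratio was not tested. AC003986.6 shares 141 exon bases with TWIST1, and both had too few reads to compare. The overlaps of the ZEB genes took few reads: ZEB1-AS1 shares 366 bases with ZEB1 (chr10:31318495-31529814) and had at most 1.48% of its reads, and ZEB2-AS1 shares 1250 with ZEB2 (chr2:144384081-144524583) and had at most 2.58%. FN1 (chr2:215360440-215436172, minus strand) shares no exon base with another gene of the table.

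**Figure D4:**
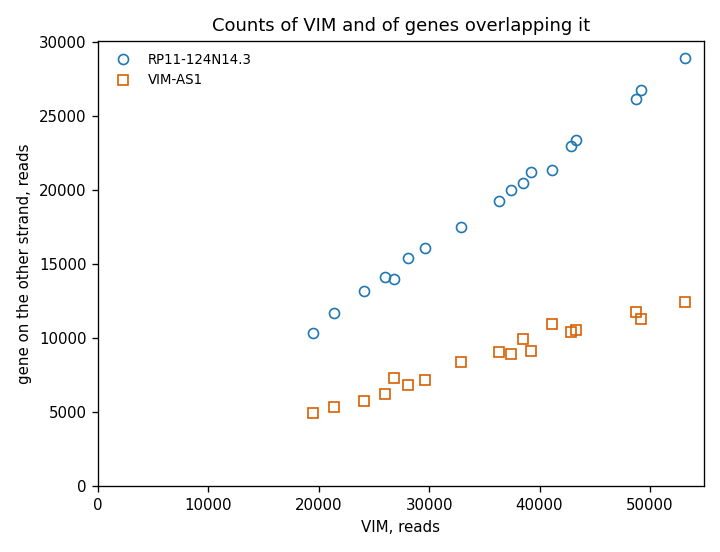
Reads of RP11-124N14.3 and VIM-AS1 against those of VIM, with 1 point per library and gene (18 libraries). Both lie close to a straight line through the origin over the 19433 to 53200 reads of VIM.

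For some EMT genes libraries differed as much by replicate number as by siRNA. In T24 cells SNAI2 in replicate 2 was 4.33, 4.31 and 1.93 times the mean of replicates 1 and 3 with siNC, siACAT1-1 and siACAT1-2, and ZEB2 was 1.93, 2.39 and 1.91 times. VIM was 0.743, 0.847 and 0.593 times and FN1 0.650, 0.683 and 0.341 times that mean. Replicate 2 thus held the highest SNAI2 and ZEB2 and the lowest VIM and FN1 of each T24 group. For VIM with siACAT1-1, however, replicates 1 and 2 were nearly equal (139 and 138 RPKM) and replicate 3 was higher (186). Of the squared spread of log2 RPKM in T24 cells, the replicate number took 85.9% for SNAI2 and 65.5% for ZEB2, and the siRNA 3.96% and 30.4%. For VIM and FN1 the siRNA took more, 61.5% and 63.8%, against 30.0% and 27.6%. In UM-UC-3 cells the siRNA took 84.3% for VIM, 69.6% for ZEB2, 59.5% for SNAI2 and 57.0% for FN1. The replicate number took 8.22%, 6.05%, 11.2% and 36.0% in the same order. For ZEB1 the siRNA took 34.4% and the replicate number 44.7%. Each part takes a share of the spread even with no effect, and the shares were not tested. FN1 in UM-UC-3 cells was called in no comparison within that line. What a replicate number marks is not given in the sources used here.

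**Figure D5:**
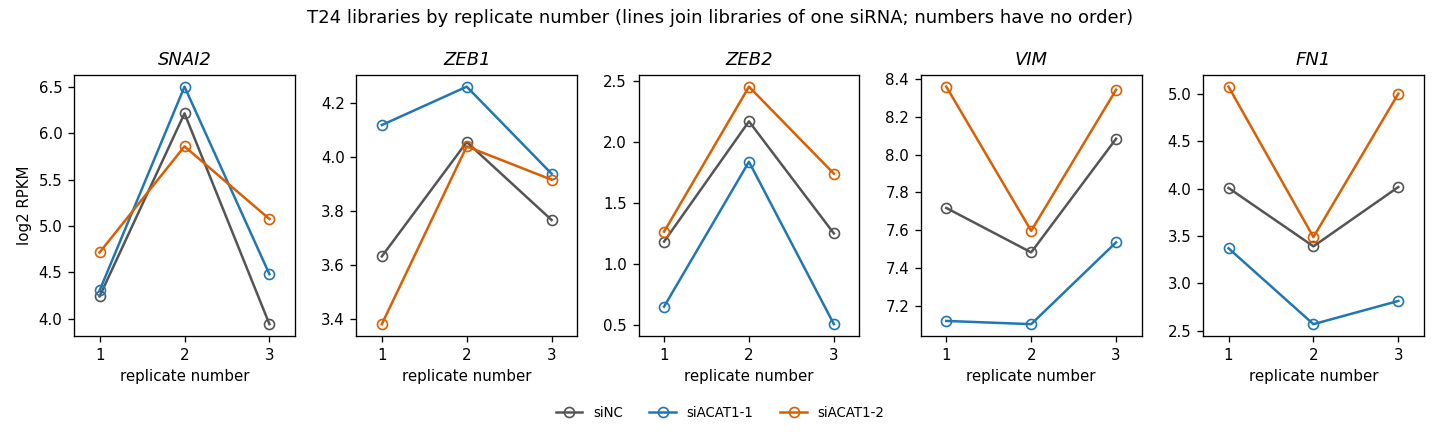
Log2 RPKM of 5 genes in the 9 T24 libraries by replicate number, with a line for each siRNA group (each panel has its own y axis; the numbers have no order). Replicate 2 is high for SNAI2 and ZEB2 and low for FN1 in each group. It is low for VIM with siNC and siACAT1-2, and near replicate 1 with siACAT1-1. Within each number siACAT1-1 is lowest for ZEB2, VIM and FN1.

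The genes most like each member were taken by Pearson's r of log2 CPM (counts scaled to library size) over 18 libraries, each minus the mean of its cell line, among tested genes with a mean of at least 1 RPKM. They share libraries and depth, and r is a description. For VIM they were the overlapping RP11-124N14.3 and VIM-AS1 (0.999 and 0.993) and CTC-518P12.6 (0.928). For FN1 they were SYNPO, an actin-associated protein (0.920), CDH2, N-cadherin (0.905), and MON1A (0.896). ZEB1 was nearest to KPNA4, an importin (0.937), USP8, a deubiquitinase (0.935), and ITCH, a ubiquitin ligase (0.934), and ZEB2 to PDCD10 (0.947), ZC2HC1A (0.945) and ADIPOR1, an adiponectin receptor (0.927). SNAI2 was nearest to KLHL21 (0.911), TP53RK (0.903) and STAM (0.898), and SNAI1, with few reads, to UBE2D1 (0.895), LLPH-AS1 (0.878) and POLR2A (0.866). CDH2 averaged 12.7, 7.05 and 14.0 RPKM in T24 cells with siNC, siACAT1-1 and siACAT1-2, and 4.03, 3.13 and 4.21 in UM-UC-3 cells.

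The remaining members lie at chr20:49982999-49988886 (SNAI1, plus strand), chr8:48917690-48921740 (SNAI2, minus strand), chr7:19020991-19117672 (TWIST1, minus strand) and chr2:238848032-238910543 (TWIST2, plus strand) in GRCh38, as the count table gives them. Locus limits and levels are those of the whole gene, so transcript forms of FN1, ZEB1 or ZEB2 were not separated.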

How the data were processed

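RNA was sequenced from 18 libraries (KC-Digital stranded kit with molecular identifiers, per the labels). Per the labels and methods, the authors trimmed with Trimmomatic 0.36, aligned with STAR 2.5.3 to GRCh38 and counted with featureCounts (Subread 1.5.1); deposited values are read counts per gene and RPKM. The deposited RPKM equalled the count scaled by exon length and counted reads within 5.1e-06%. The strand setting, the collapse of identifiers, the handling of multimapping reads and the annotation release are not given in the sources used here; 73.0% of counts from 1 to 20 were even, so that reads may not be independent molecules and floors cover counting error only.

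Counts were fitted with edgeR 4.0.16 (quasi-likelihood, TMM, filterByExpr with a minimum count of 10, 1 coefficient per group, all 18 libraries) in R 4.3.3, leaving 20144 of 39496 genes. P-values were adjusted over these by the Benjamini-Hochberg method, called under 0.05. Depth was 25163490 to 34417230 reads (median 28613163). DESeq2 1.42.0, limma 3.58.1 on log2(RPKM + 0.1), other scalings, no filter, a replicate block and left-out libraries were alternatives. MANE lengths came from GENCODE 44, and overlaps from the exon coordinates deposited with the counts. The edgeR fit without the block was tested on simulated counts with no replicate effect, for the mean over the 4 comparisons alone. The block, the other comparisons, DESeq2 and limma were not tested in this way. The members and gene lists were chosen with earlier results of these data known. The text names, of each list, up to 4 genes with the largest absolute log2 difference past the threshold between the siNC groups and over the 4 comparisons, and the 3 genes most like each member; other list genes were chosen after their values were seen. CCN2, GRHL2 and KRT20 were not used here.

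Same-numbered libraries of a cell line deviated together: the correlations of their deviations from the group means were 0.115 to 0.576 in UM-UC-3 and 0.356 to 0.686 in T24 cells (9 of 9 pairs over 0.1 in each), against -0.545 to 0.269 and -0.567 to 0.210 for other numbers. The pairing therefore comes from the data and not from the labels, and the text gives blocked values where a call changes.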

Additional observations from a re-analysis of the deposited data

How the results depend on the processing

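The calls between the siNC groups for SNAI2, FN1 and ZEB1 were kept with each of the 18 libraries left out (log2 differences -6.158 to -4.823, -4.334 to -3.95 and 1.174 to 1.287). Leaving out T24 replicate 2 or UM-UC-3 replicate 3 in all groups was chosen after seeing the data. No paired analysis was possible for siNC UM-UC-3 against siNC T24 because the numbers are nested in the cell lines. Size factors of DESeq2's kind (RLE) shifted the log2 fold changes of all genes by a median of 0.00558 for the mean of 4 siRNA comparisons. The shift in the other comparisons is not given here. At 0 to 8 reads, SNAI1 in T24 cells gave no usable fold change.

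The number of members called moved as follows, and the causes were not tested. With the replicate block it was 1 and 3 for siACAT1-1 against siNC in UM-UC-3 and T24 cells, 1 for siACAT1-2 in T24, 1 over the 4 comparisons, and 4, 2 and 3 between the siRNAs over both lines, in UM-UC-3 and in T24. Of all 20144 genes the block called 617, 2799, 1708, 2500, 4141, 1642 and 2958 in the same order. For the fits with libraries left out the share of all genes is not given here. With the block and without T24 replicate 2 the members called were 2, 3, 3, 1, 4, 2 and 3, and with the block and without UM-UC-3 replicate 3 they were 3 and 1 for siACAT1-1 and siACAT1-2 in T24, and 4 and 3 between the siRNAs over both lines and in T24. Without the block, leaving out T24 replicate 2 gave 1, 1 and 3 for siACAT1-1, siACAT1-2 and their difference in T24 and 3 between the siRNAs over both lines, and leaving out UM-UC-3 replicate 3 gave 0 between the siRNAs over both lines and 0 in T24. No filter gave 1 for siACAT1-1 in UM-UC-3, 1, 1 and 2 for the T24 comparisons and 3 between the siRNAs over both lines, DESeq2 gave 2 and T24 fitted alone 0 between the siRNAs in T24. The calls over all genes moved too. In the same order they were 167, 463, 180, 521 and 884 with no filter, against 2, 25, 54, 195 and 515 with it. Between the siRNAs in T24, DESeq2 called 696 genes and T24 fitted alone called 1. With 1 library left out the number ranged from 0 to 1 for siACAT1-2 in T24, from 0 to 2 between the siRNAs over both lines, from 0 to 2 in T24 and from 3 to 4 between the siNC groups. With the block, list calls over the 4 comparisons and between the siRNAs were 1 and 2 for other EMT factors, 4 and 9 for corepressors, 3 and 6 for TGF-beta genes, 6 and 10 for mesenchymal and 3 and 5 for epithelial genes, beside 12.4% and 20.6% of all genes.

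Signs turned for values that were not called, most of them near 0 (SNAI1, with few reads, was not). For the mean of 4 comparisons, FN1 was -0.00123 with the block, -0.01002 with limma and -0.01495 with the block without UM-UC-3 replicate 3. For the siRNA difference in T24, SNAI2 was 0.1606 with the block, 0.1194 with limma, 0.523 without T24 replicate 2, 0.5236 with the block too, and 0.139 with the block without UM-UC-3 replicate 3. For the cell line difference of the knockdown effect, ZEB1 was -0.005841 with the block, -0.05745 without UM-UC-3 replicate 3 and -0.07031 with the block too, and SNAI1 was -1.626 and -1.37 without T24 replicate 2, without and with the block. ZEB2 there was 0.01567 with RLE, 0.01581 with DESeq2, 0.02874 with no filter, 0.01687 with the block, 0.05802 with limma, 0.108 and 0.1081 without T24 replicate 2, and 0.00364 with the block without UM-UC-3 replicate 3. ZEB2 between the siNC groups was 0.1729, and SNAI1 with siACAT1-1 in T24 was 0, without T24 replicate 2.

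With 1 library left out, signs turned within these ranges of log2 difference. For the cell line difference of the knockdown effect they were -0.1136 to 0.2785 for FN1, -3.905 to 2.334 for SNAI1, -0.4263 to 1.08 for SNAI2, -0.312 to 0.03732 for VIM, -0.06691 to 0.1326 for ZEB1 and -0.3078 to 0.2818 for ZEB2. Over the 4 comparisons they were -0.07424 to 0.1218 for FN1, -0.7811 to 2.338 for SNAI1 and -0.2092 to 0.08562 for ZEB2. With siACAT1-1 in T24 they were -4.444 to 3.584 for SNAI1 and -0.7202 to 1.292 for SNAI2, and with siACAT1-2 -0.4193 to 4.997 for SNAI1, -0.2153 to 1.126 for SNAI2, -0.1255 to 0.1241 for ZEB1 and -0.04491 to 0.6202 for ZEB2. In UM-UC-3 cells they were -0.1166 to 0.01315 for FN1 and -0.4344 to 1.165 for SNAI1 with siACAT1-1, and -0.007904 to 0.1215 for VIM and -0.2705 to 0.03856 for ZEB1 with siACAT1-2. Between the siRNAs they were -0.5787 to 0.0976 for SNAI2 over both lines, -0.5001 to 0.8448 for SNAI2 in T24 and -0.04358 to 0.9564 for SNAI1 in UM-UC-3, and ZEB2 between the siNC groups ran from -0.3018 to 0.1596. Of the other fold changes of members, 485 kept direction and side of the threshold, 46 newly passed it and 4 no longer did under alternatives other than leaving out 1 library.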
